A study of Mus musculus with 2 samples.

Results

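Eif5a and Etf1 encode proteins that help the ribosome to build and to release a protein chain. Several clusters of RNA reads recovered with tagged FAM120A were listed at both genes. eIF5A carries the unusual amino acid hypusine, made by the enzymes DHPS and DOHH, and helps ribosomes through peptide bonds that form slowly, such as runs of proline, and also acts at termination. Etf1 encodes eRF1, the release factor that recognises stop codons and, together with eRF3, frees the finished protein. FAM120A is an RNA-binding protein that associates with the small-RNA effector Ago2.

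The members were the listed read clusters that lay wholly inside a window around each gene, on the gene's strand, in the mouse genome build mm9. For Eif5a the window lay on the minus strand of chromosome 11, began 365 nt below the lowest-coordinate cluster and was 5501 nt long. For Etf1 it lay on the minus strand of chromosome 18, began 611 nt below the lowest-coordinate cluster and was 30501 nt long. They came to 41 of the 11670 clusters in the tagged list, 9 in Eif5a and 32 in Etf1, and to 0 of the 1134 clusters in the untagged list. The genes were selected on the measured enrichment itself, since clusters there had some of the lowest listed p-values of the tagged list, so the counts, reads and ratios of these clusters are given as descriptions, with no test. Gene names come with the windows, and no mm9 gene models were used here, so exons and untranslated regions are not assigned.

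RNA was measured by iCLIP, in which ultraviolet light joins a protein to the RNA it touches, the protein is immunoprecipitated, and the attached RNA fragments are sequenced. There were 2 libraries of mouse embryonic stem cells, 1 per group. Both lines, TT-FHFam120a and TT-Fam120a, carried a lentiviral Fam120a gene of the pSLIK system and were induced with doxycycline at 2.5 µg/mL. The protein bore FLAG and HA tags in TT-FHFam120a and no tag in TT-Fam120a, and lysates of both went through FLAG and then HA immunoprecipitation, so the untagged library measured background. Whether a line was 1 clone is not given in the sources used here. The lists hold clusters, not gene levels, so the cell type and the induced gene could not be checked in them.

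Each list held clusters enriched over the other library, and the tagged list reached down to 5 reads. Its listed p-values, binomial as inferred from the values, were at most 0.0494, so listing itself favours ratios above 1. Total depth is unknown. The listed values allowed 1 measure of relative depth, a depth factor of 1.501 by which untagged reads were multiplied to match the tagged library. Ratios below are tagged reads over unscaled untagged reads, divided by this factor, with exact binomial (Clopper-Pearson) 95% intervals. Those intervals cover counting error only, not the spread between libraries, and they treat each read as independent. The sources used here do not say whether PCR duplicates were removed. With 1 library per group no difference between the lines has a replicate check. Distances were counted from the lowest-coordinate base covered by a cluster in each gene, which is the 3′-most one because both genes lie on the minus strand. That base is not an annotated transcript end.

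Eif5a was compact. Its 9 clusters lay within 475 nt, positions 69730365 to 69730839, and together covered 260 nt, or 54.7% of that stretch. Etf1 was long. Its 32 clusters lay within 6289 nt, positions 35062611 to 35068899, and covered 1199 nt. A single cluster of Etf1 stood apart, 3121 nt from its nearest neighbour, and without it the remaining 31 covered 37.3% of 3142 nt. The density was 1.89 clusters per 100 nt in Eif5a and 0.987 in the 31 Etf1 clusters. All spans here are genomic, also those of the loci ranked below. The 3142 nt of Etf1 include a gap of 911 nt, read below as that of a splice junction, which held no cluster. The Eif5a stretch ended before its own such gap. On the 3′ side of the Etf1 gap, 29 clusters lay within 2064 nt. The density and coverage of Etf1 therefore count a gap that those of Eif5a do not. Among the 263 loci of the tagged list that held at least 9 clusters after merging those within 1000 nt, the median density was 0.936. Eif5a held only the 9 clusters that this limit asks for. Its rank of 227 in number of clusters was the lowest, shared with every other locus of 9 clusters. It had the 7th highest density and the 3rd shortest span of these loci, most of which held more clusters. Etf1 was 118th in density and 15th in number of clusters.

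**Figure D1:**
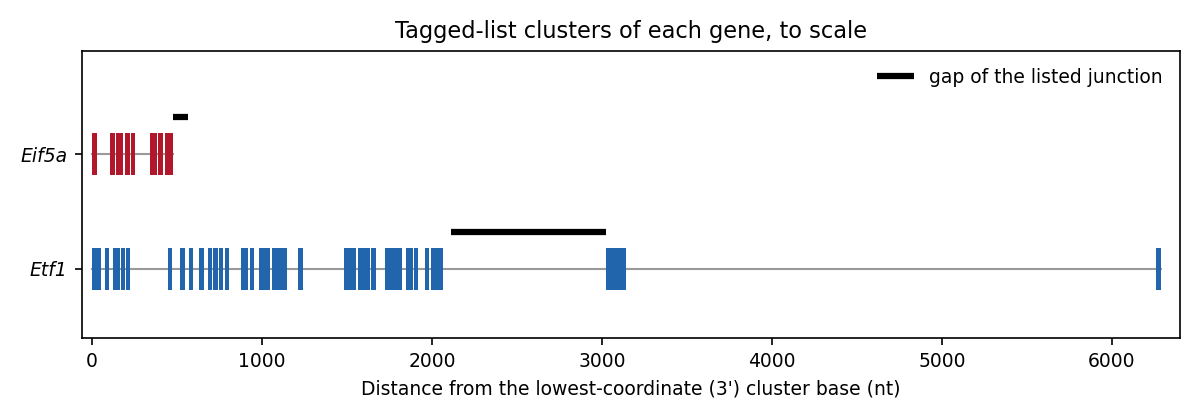
Position of every tagged-list cluster (coloured blocks, drawn to scale) of Eif5a and Etf1, against distance in nt from the lowest-coordinate cluster base of each gene; the gene's 3′ side is at the left. Black bars mark the gap of the junction listed in each gene, 86 nt in Eif5a and 911 nt in Etf1. All 9 Eif5a clusters lie within 475 nt, and the Etf1 clusters reach 6289 nt.

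Each gene held 1 cluster named as a splice junction, that is, a cluster of reads that cross from one exon into the next. In the tagged list 19 of 38 junction clusters lay on the low-coordinate side, and each ended at most 45 nt after the first position in its name. The names were therefore read as a flank of 45 nt followed by the gap. Both the reading as a junction and the flank are inferred. So read, the Eif5a junction had a gap of 86 nt that began 479 nt from the 3′ end. Its cluster, positions 69730818 to 69730839, had 6 tagged reads against 0 untagged reads. The Etf1 junction had a gap of 911 nt that began 2114 nt from the 3′ end. Its cluster, positions 35065636 to 35065734, had 10 tagged reads against 1. No other cluster of either gene lay inside these gaps. In Eif5a all 9 clusters lay on the 3′ side of the gap. In Etf1 29 lay on the 3′ side, within 2064 nt, and 3 on the 5′ side, 1 of them the junction cluster itself. The Eif5a junction cluster overlapped its neighbour by 3 nt and the Etf1 junction cluster overlapped its neighbour by 25 nt, so these pairs can share reads.

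The strongest Eif5a cluster lay close to the 3′ end, 106 to 131 nt from it, at positions 69730471 to 69730496. It had 671 tagged reads against 16 untagged reads, a ratio of 27.9 (17.1 to 49.2). In the whole tagged list it had the 5th lowest p and the 7th highest read count. The next cluster towards the 3′ end was 80 nt away and the next towards the 5′ end was 8 nt away.

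The other leading Eif5a clusters formed groups on both sides of an 83 nt gap. At 140 to 183 nt, 158 tagged reads stood against 3 untagged reads, a ratio of 35.1 (11.8 to 172). At 229 to 254 nt there were 93 tagged reads against 4, a ratio of 15.5 (5.85 to 58). Beyond the gap, at 338 to 378 nt, the cluster with the next highest count of the gene had 309 tagged reads against 12, a ratio of 17.2 (9.68 to 33.6). All these intervals overlapped, so no order among the ratios of these clusters could be set. At 430 to 455 nt, next to the junction, there were 56 tagged reads against 2, a ratio of 18.7 (4.93 to 158).

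Clusters with 0 untagged reads and at least 20 tagged reads numbered 2 in Eif5a. The cluster at the 3′ end itself had 30 tagged reads against 0, with a ratio interval that began at 5.09 and has no upper end. The cluster at 390 to 415 nt had 24 tagged reads against 0, with an interval that began at 4.01. The remaining cluster, at 195 to 220 nt, had 50 tagged reads against 1, a ratio of 33.3 with an interval of 5.71 to 1342. Apart from the junction cluster, whose interval began at 0.785, all Eif5a intervals lay above 1.

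**Figure D2:**
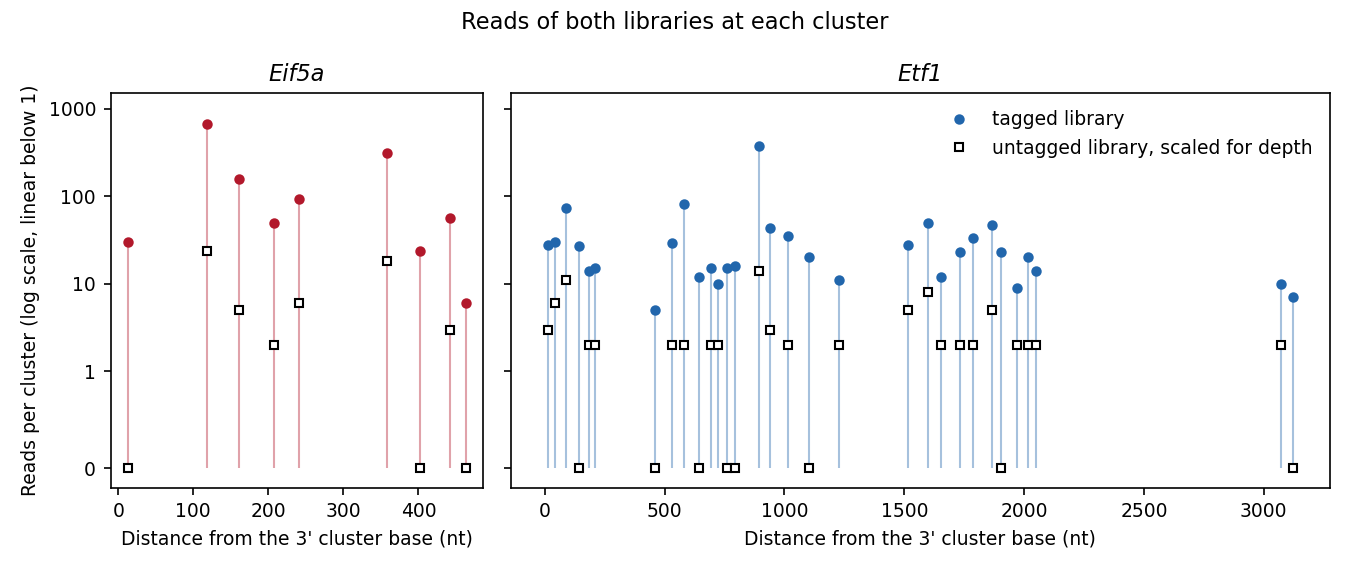
Reads at each cluster of Eif5a (left) and Etf1 (right) against distance in nt from the 3′ cluster base, on a log axis that is linear below 1. Filled circles are tagged reads and open squares are untagged reads scaled for depth; the Etf1 cluster at 6263 nt is outside the plot. Eif5a reaches 671 tagged reads and Etf1 375, each at a single cluster, and tagged reads exceed untagged reads at every cluster, as the listing rule requires.

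In Etf1 the strongest cluster lay further from the 3′ end, at 874 to 914 nt, positions 35063485 to 35063525. It had 375 tagged reads against 9 untagged reads, a ratio of 27.8 (14.5 to 61.2). It had the 6th lowest p of the tagged list and the 12th highest read count. Within the gene it exceeded the cluster with the next highest count 4.57 times, while in Eif5a the highest count was 2.17 times the next. The leading ratios of Eif5a and Etf1 lay inside each other's intervals.

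The clusters next in p were spread over the length of the Etf1 stretch. At 569 to 594 nt, 82 tagged reads stood against 1 untagged read, a ratio of 54.6 with an interval of 9.54 to 2184, the highest point value in either gene but one that rests on 1 untagged read. At 76 to 101 nt there were 74 tagged reads against 7, a ratio of 7.04 (3.25 to 18.1). That interval overlapped the interval of the leading Etf1 cluster, although its point value was lower. At 929 to 954 nt there were 44 tagged reads against 2, a ratio of 14.7 (3.82 to 125). At 1845 to 1890 nt there were 47 against 3, a ratio of 10.4 (3.36 to 52.4). The cluster nearest the 3′ end had 28 tagged reads against 2, a ratio of 9.33 (2.35 to 80.8).

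Gaps over 100 nt divided Etf1 into 5 stretches, while Eif5a had no gap of that size. The stretch at the 3′ end, 0 to 224 nt, held 6 clusters of 14 to 74 reads with a median listed log2 ratio of 2.53. This listed ratio is the authors' log2 of tagged over scaled untagged reads after adding 1 to each. The next, 447 to 1239 nt, held 13 clusters, among them the strongest, and had a median of 3.58. The one after it, 1485 to 2063 nt, held 10 clusters of 9 to 50 reads with a median of 2.66. The stretch from 447 nt had 5 clusters with 0 untagged reads and those on either side of it had 1 each. A cluster with 0 untagged reads has a listed ratio set by its own reads, so these medians are not measured folds. Beyond the junction gap 2 clusters of 7 and 10 reads lay at 3025 to 3141 nt.

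The cluster that stood apart in Etf1 lay at 6263 to 6288 nt, positions 35068874 to 35068899. It had 9 tagged reads against 0 untagged reads, with a ratio interval that began at 1.32. It was the last cluster inside the window on its high-coordinate side. The next cluster on the strand, positions 35097385 to 35097410, lay 4.88 kb outside the window with 8 tagged reads against 0. For Eif5a the nearest clusters outside the window were 158 kb and 730 kb away, with 5 and 13 tagged reads, so its edges did not bear on the count. On the low side of Etf1 the nearest outside cluster was 269 kb away.

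**Figure D3:**
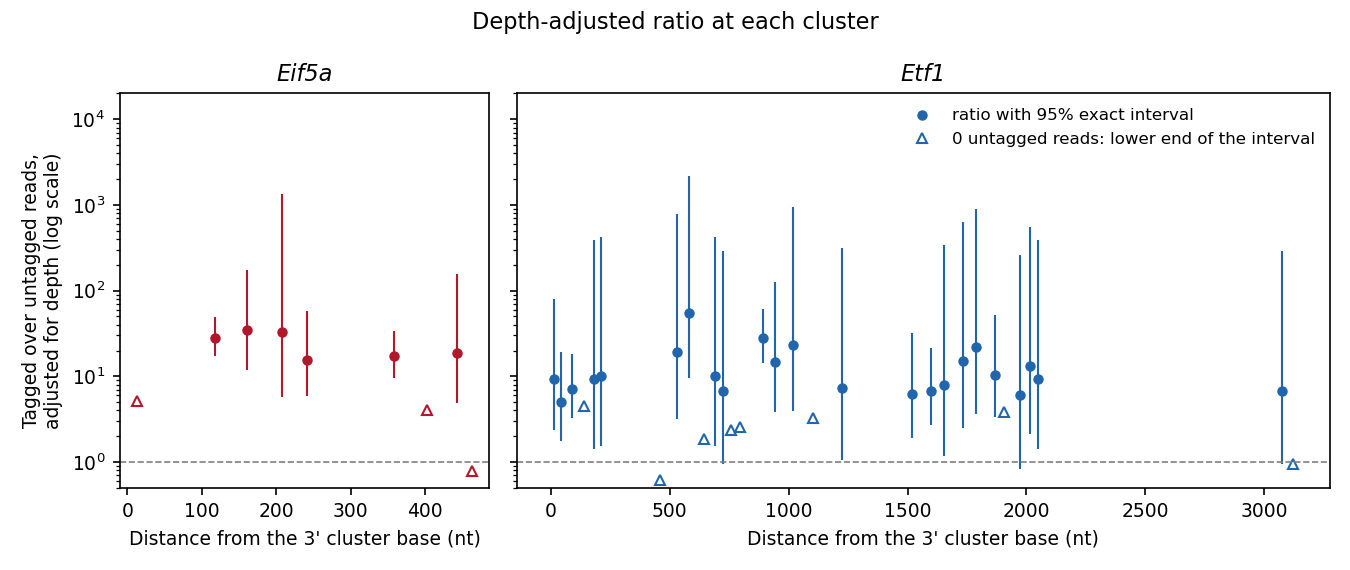
Depth-adjusted ratio of tagged to untagged reads (log axis) at each cluster of Eif5a (left) and Etf1 (right) against distance in nt from the 3′ cluster base; the Etf1 cluster at 6263 nt is outside the plot. Circles with bars are ratios with 95% exact intervals, triangles mark the lower end of the interval where untagged reads were 0, and the dashed line is a ratio of 1. The leading clusters have ratios of 27.9 and 27.8, and most intervals overlap.

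Set side by side over all clusters, Eif5a had higher medians of reads and of ratios than Etf1. Tagged reads ran from 6 to 671 with a median of 56 in Eif5a (interval 24 to 309) and from 5 to 375 with a median of 20 in Etf1 (14 to 29). The listed log2 ratio ran from 2.81 to 4.95 in Eif5a, with a median of 4.09 (3.75 to 4.75), and from 1.74 to 4.81 in Etf1, with a median of 2.93 (2.42 to 3.50). These intervals on medians come from binomial order statistics over clusters of 1 RNA, which share reads and are not replicates. The ranges of the genes overlapped on both measures, as did the intervals on the median reads, while the intervals on the median log2 ratio did not. Clusters of at least 100 reads numbered 3 in Eif5a and 1 in Etf1, against 1.77% of the tagged list. In all, 8 of 9 Eif5a clusters and 16 of 32 Etf1 clusters had a listed log2 ratio of at least 3, against 38.7% of the whole tagged list. At 20 reads or more it was 8 of 8 and 11 of 17, against 46.3%. An interval above 1 was found for 8 of 9 and 27 of 32 clusters, against 46.2% of the list, most of which has few reads. At 20 reads or more it was 8 of 8 and 17 of 17, against 89.1%. Among the 263 loci of at least 9 clusters, whose median log2 ratios had a median of 3, the Eif5a locus was 2nd with 4.09 and the Etf1 locus, with 2.86 over its 31 clusters, was 160th. Because these values also chose the genes, nothing further is read from these shares.

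A comparison at the same distance from the 3′ end used an equal length in both genes. The length was set to the 475 nt that the Eif5a clusters span, so it was fitted to Eif5a and cuts Etf1. Over the first 475 nt, Etf1 held 7 clusters, or 1.47 per 100 nt, with 5 to 74 tagged reads, a median of 27 and untagged reads from 0 to 7. The same distance in Eif5a held all 9 of its clusters, with untagged reads from 0 to 16. Of the 7 Etf1 clusters 1 had a log2 ratio of at least 3, and 8 of the 9 in Eif5a. The Etf1 median log2 ratio there was 2.58, with an interval of 2.15 to 4.81 that overlapped the Eif5a interval. With 7 clusters this interval is their full range, so the overlap says little about the medians. A stretch of the same length with the most clusters in Etf1, from 447 to 914 nt, held 9 clusters, as many as Eif5a, with 5 to 375 tagged reads, a median of 15 and a median log2 ratio of 3.70. The stretch was placed after its clusters were seen.

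The read count limits the ratio a cluster can show, so clusters of like size were set beside the whole list. Among clusters of 20 to 49 reads, the 13 in Etf1 had a median log2 ratio of 3.32 and the 2 in Eif5a had 4.64 and 4.95, against a median of 2.94 over 1424 tagged-list clusters of that size. At 50 to 99 reads, the 3 Etf1 clusters had log2 ratios with a median of 2.64 and the 3 Eif5a clusters with a median of 3.83, against 2.54 over 364. At 100 reads or more, the 3 Eif5a clusters had log2 ratios of 4.03 to 4.75 and the Etf1 cluster 4.65, against a median of 0.75 over 207 clusters. The listed log2 ratio reached 4 in 54 of those 207 (26.1%). At 10 to 19 reads the Etf1 median was 2.32 over 11 clusters against 2.66 over 3046, and at 5 to 9 reads it was 2.79 over 4 clusters against 2.81 over 6629. These bands hold few members, and the ratios in them also chose the genes.

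**Figure D4:**
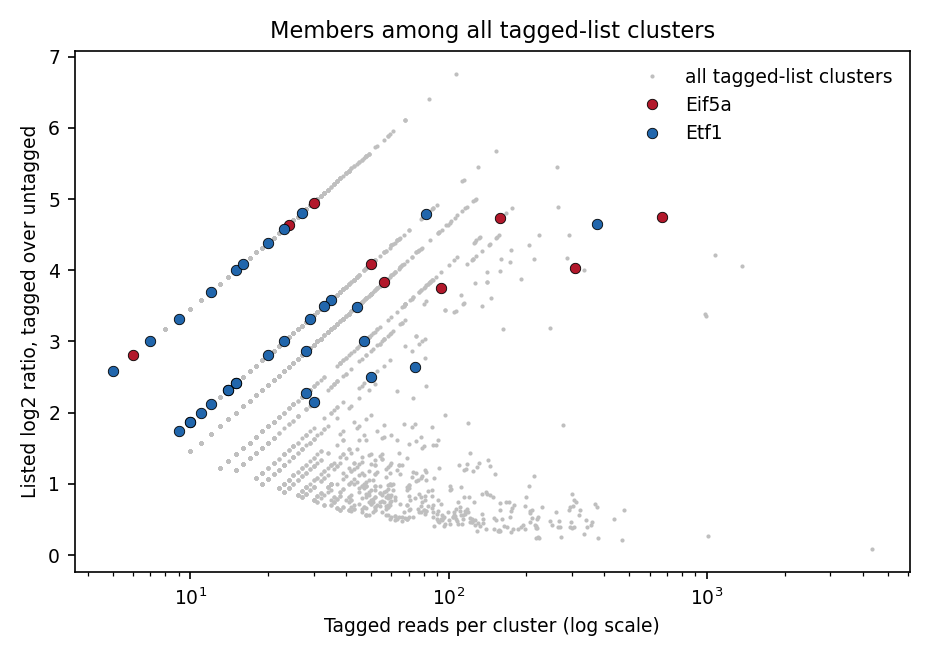
Listed log2 ratio of tagged to untagged reads against tagged reads per cluster (log axis) for all 11670 tagged-list clusters (grey), with the 9 Eif5a clusters in red and the 32 Etf1 clusters in blue. The upper diagonal line of points is formed by clusters with 0 untagged reads; among clusters of 100 reads or more the 4 members lie at 4.03 to 4.75, where the list has a median of 0.75.

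Background reads were present in both mRNAs at part of the clusters. The untagged library had 0 reads at 3 of 9 Eif5a clusters, or 33.3% (7.49 to 70.1), and at 9 of 32 Etf1 clusters, or 28.1% (13.7 to 46.7), against 69.9% of the tagged list. That list share is set largely by small clusters: of the 6629 clusters with 5 to 9 tagged reads, 96.4% had 0 untagged reads. At 20 or more tagged reads, 2 of 8 Eif5a clusters and 3 of 17 Etf1 clusters had 0 untagged reads, against 16.1% of the list. At this size the ratio interval lay above 1 at all 8 Eif5a and all 17 Etf1 clusters, against 89.1%, and above 2 at 8 and 15, against 58.2%. The lowest interval bounds were 4.01 and 1.76.

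Reads were spread over positions in both genes rather than stacked at a single position. The share of a cluster's reads at its highest position was examined at 20 or more reads. It ran from 12% to 82.1% in Eif5a, with a median of 28.3% over 8 clusters, and from 17.4% to 86.2% in Etf1, with a median of 35% over 17. At most 50% of reads lay at the highest position in 7 of 8 and 15 of 17 clusters, against 56.4% of the tagged list. Each gene had 1 cluster with over 75% at a single position. In Eif5a it was the cluster beside the junction, with 46 of 56 reads. In Etf1 it was the cluster at 519 to 544 nt, with 25 of 29 reads against 1 untagged read. At the leading clusters 242 of 671 reads (36.1%) and 157 of 375 reads (41.9%) lay at the highest position. A cluster's count can include reads that reach beyond it, and the part of close neighbours in this share was not tested.

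Neighbouring clusters were close in both genes. The median gap between neighbours was 11 nt in Eif5a over 8 gaps, with a range of -3 to 83 nt where a negative value is an overlap. In Etf1 it was 19 nt over 31 gaps, with a range of -25 to 3121 nt. The interval on the median was 8 to 35 nt in Etf1, and in Eif5a it equalled the full range. Gaps of at most 10 nt made up 3 of 8 and 12 of 31. Merging clusters within 50 nt of each other left 3 in Eif5a and 8 in Etf1, and it was not tested whether near clusters are distinct binding sites. The authors' class named region C2 held 7 Eif5a and 24 Etf1 clusters, against 42% of the tagged list, and region B held 1 and 3, against 49.1%. The remaining Etf1 clusters other than the junction, 4 in number, joined both classes. The letters are not explained in the sources used here. Most clusters were 26 nt long, 6 of 9 and 21 of 32, against 79.5% of the list, and the longest were 44 nt and 99 nt.

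Loci nearest in shape were found by number of clusters and then span. For Eif5a they were chromosome 6 from 131314923 to 131315377 (minus strand), chromosome 5 from 76637698 to 76638128 (plus strand) and chromosome 10 from 115922714 to 115923253 (minus strand), each with 9 clusters. Their spans were 455, 431 and 540 nt and their densities 1.98, 2.09 and 1.67 clusters per 100 nt. Eif5a had 475 nt and 1.89. The loci were chosen for a like number of clusters and span, so their like density follows from that choice. Their median log2 ratios were 3.50, 3.17 and 3. Their leading clusters had 173, 11 and 22 tagged reads, all below the 671 of Eif5a. The untagged library had 0 reads at 1, 8 and 7 of their clusters. On chromosome 6 the leading ratio was 19.2 (8.65 to 53.1), an interval that overlapped that of Eif5a. For Etf1 the nearest in shape was chromosome 9 from 44445602 (plus strand), with 31 clusters, of which 15 had 0 untagged reads, and a median log2 ratio of 3.50. Its leading cluster had 224 tagged reads and a ratio of 24.9 (11.3 to 68.5). The locus of chromosome 12 from 87860036 (plus strand) had 30 clusters, a median of 3.25, 0 untagged reads at 23 of them and a leading cluster of 205 reads with a ratio of 22.8 (10.3 to 62.8). Both ratio intervals overlapped that of the leading Etf1 cluster, 14.5 to 61.2. The locus of chromosome 15 from 102262236 to 102265300 (plus strand) had 30 clusters, a median of 2.81, 0 untagged reads at 20 of them and a leading cluster of 24 reads against 0. The leading clusters of Eif5a and its neighbours in shape thus held from 11 to 671 reads. The genes at these positions were not analysed here.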

How the data were processed

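The authors deposited 1 list of read clusters per library, made by steps not given in the sources used here (aligner, caller, duplicate removal); the build is mm9, per the submitters' processing notes. Deposited counts in the fifth column were taken as reads at a cluster's highest position. At the junction clusters of Eif5a and Etf1 this count equalled all reads, 6 and 10, and no share was taken from it. The authors' seventh column joins reads, a log2 ratio and a p-value, a meaning inferred from the values. Untagged reads were recovered as the whole number giving back the listed log2 ratio (tolerance 0.006) and p (0.0001, or 0.001 relative), for 100% of clusters; 5 had several candidates. All were rounded multiples of a factor between 1.5 and 1.5017, and the midpoint was used. Recovery was tested on simulated data made with the same formula. Python 3.11.15 and scipy 1.17.1 were used. Clusters described singly are the 5 of lowest p per gene and those nearest to and farthest from the 3′ end; the others were added after their values were seen. The members and lists were chosen with earlier results of these data known. Other translation factor genes were not analysed here, because naming them needs mm9 gene models.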

Additional observations from a re-analysis of the deposited data

How the results depend on the processing

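Of 27 alternatives, 21 stayed within 1.5 times a count or span, or within the 95% interval of a median, share or ratio. The other 6 moved beyond. Each of the 6 joined or dropped clusters by construction, and alternatives that dropped clusters were also among the 21. Merging clusters within 50 nt left 3 in Eif5a and 8 in Etf1. A listed p of at most 0.001 left 20 Etf1 clusters over 2035 nt. The Etf1 span was 3124 nt for clusters of at least 10 reads, and 3142 nt without the cluster that stood apart, an alternative chosen after seeing the data. Without the depth factor the leading ratios were 41.9 and 41.7, inside their intervals. That is a fixed shift by 1.501, so it reflects how wide the intervals are. Choosing the leading cluster by most reads gave the same cluster in both genes and could not move the ratio. In Eif5a the limits on p and on reads dropped the same cluster. Clusters at 0 or 1 untagged reads have wide or open intervals. No paired analysis was possible because there is only 1 sample in either line.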
